A study of Mus musculus with 2 samples.

Results

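Chemokine receptors are G protein-coupled receptors that steer leukocytes along gradients of small secreted chemokines. In skin, CCR6 and CCR2 are known for the entry of Langerhans cell precursors into epidermis, and CCR7 and CXCR4 for the departure of Langerhans cells toward lymph nodes. CX3CR1 and CCR1 are carried by monocytes and macrophages, CXCR3 and CCR10 by T cells that home to skin, and XCR1 by cross-presenting dendritic cells. The 9 receptor genes described here are Ccr1, Ccr2, Ccr6, Ccr7, Ccr10, Cxcr3, Cxcr4, Cx3cr1 and Xcr1. They were chosen by name, with earlier results of these data known. All 9 were found among the 19937 genes with a single-symbol probe set, each with 1 probe set.

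Sorted Langerhans cells, which are dendritic antigen-presenting cells resident in epidermis, came from mice with 1 LacZ allele of Il34 (Il34+/LacZ) or with 2 LacZ alleles (Il34LacZ/LacZ). Il34 encodes a ligand of the CSF1 receptor, on which Langerhans cells depend. All mice were 8 to 12 weeks old and had been exposed to ultraviolet light for 30 min, and cells positive for Langerin and Epcam were sorted 21 days later. Each genotype was measured on 1 array made from 2 ng of total RNA, and no unexposed or Il34 wild-type group is among the samples. The labels do not say whether cells of several animals were pooled, and the control mice carry a LacZ allele themselves.

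Every value below is therefore a single measurement with no replicate error. Only the spread among separate probe sets for 1 gene can serve as an error here, and its SD was 0.63 on the log2 scale (1.55-fold, from 614 genes). It covers probes only, not animals or sorts. Intensities are as deposited, on a linear scale, and a floor of 48.7, the median of all probe sets, marks readings treated here as dim. Folds and log2 differences were computed after 16, the pseudocount, was added to each intensity. The folds are therefore smaller than the plain ratios of the readings printed beside them. For folds and differences, as deposited means without rescaling of the arrays or removal of a trend. The 2 arrays differed in shape, with median intensities of 45.2 (Il34+/LacZ) and 51.9 (Il34LacZ/LacZ) and upper quartiles of 143 and 116, respectively. Dim genes tended to read higher in Il34LacZ/LacZ and genes of middle and high level lower, so each difference is also given after removal of this trend with level. In RNA from sorted cells, fewer cells of a type and less RNA per cell cannot be told apart.

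The targeted gene Il34, made in skin mainly by keratinocytes, read 39.4 and 64.4 near the floor, and it is not known here which part of the gene its probes read, so it does not check the labels. Genes known as Langerhans cell markers read far above the floor on both arrays, and so did genes known as T cell markers. Cd207 and Epcam encode the proteins used for the sort, so their readings are not independent of it. Cd207, which encodes Langerin, gave 3153 and 1852 in Il34+/LacZ and Il34LacZ/LacZ, respectively, Epcam 633 and 708, and all 14 Langerhans cell markers were above the floor on both arrays. All 10 measured T cell markers were too, among them the T cell receptor subunit Cd3e at 1245 and 1250. Their summed intensity was 10441 and 9056. The summed intensity of 10 keratinocyte markers was 4538 and 686, with Krt14 at 787 and 58.6. The summed intensity of 10 macrophage markers was 2924 and 4453, of which 8 were at or above the floor. Of 8 measured monocyte markers 5 were at or above the floor, and of 8 markers of type 1 conventional dendritic cells 6. Clec9a, the lectin that defines the latter, was below the floor at 21.0 and 35.4. Of all 19937 genes, 12843 were at or above the floor on at least 1 array and 9803 on both. Such counts alone therefore do not show that a cell type was present. The part of any of these cells in the receptor readings was not tested.

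The promoter windows of the receptors furthest lower in Il34LacZ/LacZ, Ccr1 and Cxcr3, are shown beside that of Cxcr4, which was far above the floor on both arrays. Each runs from 250 bases before to 50 after the start of the gene, 5′ to 3′ on the strand of the gene, from RefSeq (GRCm38.p6). Ccr1 lies at chr9:123968643-123968942, Cxcr3 at chrX:101734098-101734397 and Cxcr4 at chr1:128592250-128592549, all on the minus strand. Capitals mark matches on either strand to the PU.1 core GAGGAA, the RUNX motif TGTGGT, the TATA box TATAAA or the GC box GGGCGG. PU.1 and RUNX3 are transcription factors of Langerhans cells.
Ccr1: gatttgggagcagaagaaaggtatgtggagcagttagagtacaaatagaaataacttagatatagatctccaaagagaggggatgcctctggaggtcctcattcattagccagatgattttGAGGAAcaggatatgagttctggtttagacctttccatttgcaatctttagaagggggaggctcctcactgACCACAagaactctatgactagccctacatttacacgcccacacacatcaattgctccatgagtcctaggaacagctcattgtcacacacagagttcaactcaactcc
Cxcr3: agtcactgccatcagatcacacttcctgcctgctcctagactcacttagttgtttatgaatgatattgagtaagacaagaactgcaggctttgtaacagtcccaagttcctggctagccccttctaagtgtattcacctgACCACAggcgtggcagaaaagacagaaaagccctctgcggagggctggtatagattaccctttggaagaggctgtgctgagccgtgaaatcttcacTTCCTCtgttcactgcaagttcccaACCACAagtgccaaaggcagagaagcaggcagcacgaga
Cxcr4: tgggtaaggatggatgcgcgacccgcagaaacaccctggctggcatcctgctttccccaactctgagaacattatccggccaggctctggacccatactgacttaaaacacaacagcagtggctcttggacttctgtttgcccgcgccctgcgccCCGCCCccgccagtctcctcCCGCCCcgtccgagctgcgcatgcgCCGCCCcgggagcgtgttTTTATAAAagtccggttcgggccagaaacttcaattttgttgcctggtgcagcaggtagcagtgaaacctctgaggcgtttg

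The Ccr1 and Cxcr3 windows both held the PU.1 core and the RUNX motif, and the Cxcr4 window held neither. Ccr1 had 1 RUNX match, written ACCACA on this strand, and Cxcr3 had 2. The Cxcr4 window instead held 3 GC boxes and a TATA box matched on both strands in overlapping letters. Of all 32851 windows of this length, 28.3% held the PU.1 core, 16.8% the RUNX motif, 13.6% the TATA box and 35.7% the GC box. Among the 7 receptors with a window in the table, 4 held the RUNX motif (Ccr1, Ccr6, Cxcr3 and Cx3cr1), 3 the PU.1 core (Ccr1, Ccr6 and Cxcr3), 2 the TATA box and 1 the GC box. These receptors have 8 windows, 2 of them for Ccr6, and are counted by gene, whereas the shares over all windows are counted by window. Ccr6, with both motifs in its first window, differed by 0.49. Ccr2, whose window held none of the motifs, differed by -0.47. These matches describe the letters and not the binding of a factor, and their relation to the differences was not tested. Ccr7 and Ccr10 were not analysed here in this respect.

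Among the receptors of Langerhans cell traffic, Cxcr4 and Ccr7 were well above the floor in both genotypes and Ccr6 was not. Cxcr4, the receptor of CXCL12, read 2596 in Il34+/LacZ cells and 1977 in Il34LacZ/LacZ cells. Both readings lay above at least 99.2% of the genes on their array. The difference of -0.39 was within the probe set SD, became 0.09 with the trend removed and turned to 0.10 after quantile normalization of the arrays.

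Ccr7, the receptor that guides maturing dendritic cells into lymph vessels, read 578 in Il34+/LacZ cells and 431 in Il34LacZ/LacZ cells. These are 11.9 and 8.84 times the floor. The difference was -0.41, or 0.21 with the trend removed, and it also changed sign after quantile normalization, to 0.12. Genes nearest to Ccr7 in level had a median difference of -0.66, and Ccr7 stood at the 69.0 percentile among them.

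Ccr6, the receptor of CCL20, read 34.9 in Il34+/LacZ, below the floor, and 55.4 in Il34LacZ/LacZ, just above it. Against the floor it was at least 1.10-fold higher in Il34LacZ/LacZ. Its difference of 0.49 lay beside a median of 0.37 for genes of its level, and it was 0.16 with the trend removed. Ccr6 thus differed about as other dim genes did.

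**Figure D1:**
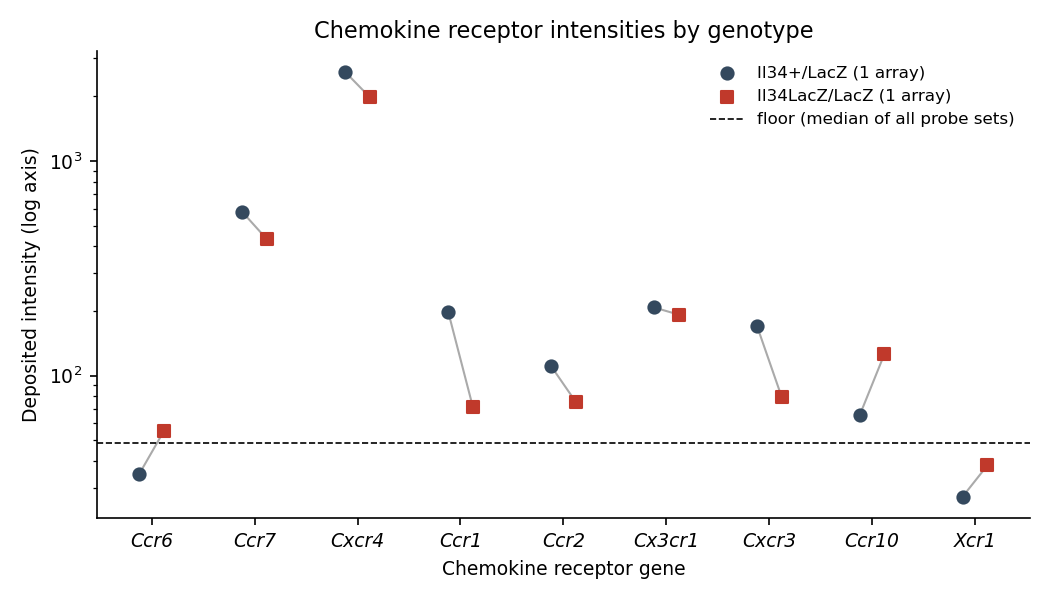
Deposited intensity of the 9 chemokine receptor genes (log axis) for Il34+/LacZ (circles) and Il34LacZ/LacZ (squares), 1 array each, joined by lines, with the floor of 48.7 dashed. Cxcr4 and Ccr7 stand far above the floor on both arrays, Ccr6 crosses it and Xcr1 stays below it.

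Of the monocyte and macrophage receptors, Ccr1 was 2.45-fold lower in Il34LacZ/LacZ, whereas Ccr2 and Cx3cr1 differed by less than the probe set SD. Ccr1, which binds CCL3, CCL5 and CCL9, read 199 in Il34+/LacZ cells and 71.5 in Il34LacZ/LacZ cells, 4.08 and 1.47 times the floor. The difference was -1.29, and -1.04 with the trend removed. Among the 500 genes nearest in level, whose 25th and 75th percentiles were -0.67 and 0.26, 5.40% differed by more in this direction. Ccr1 was the only one of the 9 receptors at least 2-fold apart by both measures. Of all genes at or above the floor, 12.1% reached this in the lower direction as deposited and 7.07% with the trend removed. The plain readings of Cxcr3 were 2.14-fold apart, but it was 1.65-fold lower with the trend removed.

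Ccr2, the receptor of CCL2 that draws monocytes out of bone marrow, read 111 in Il34+/LacZ cells and 75.4 in Il34LacZ/LacZ cells. It was 1.39-fold lower, with a difference of -0.47, or -0.42 with the trend removed. That placed it at the 31.2 percentile among genes of its level.

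Cx3cr1, the fractalkine receptor of monocytes and tissue macrophages, read 208 in Il34+/LacZ cells and 192 in Il34LacZ/LacZ cells. The pair of readings was nearly level, with a difference of -0.10. Because genes of its level had a median of -0.54, the value with the trend removed was 0.39, and after quantile normalization it was 0.30. Ccr1 and Cx3cr1 had like readings in Il34+/LacZ, 4.08 and 4.26 times the floor, but probe brightness differs between genes and their amounts cannot be compared. The summed intensity of 8 monocyte markers was 5191 and 3572, but 1510 and 1451 over the 7 without Nr4a1, which read 3681 and 2120. The 7 did not move together, since Itgam (594 and 326) and Plac8 (173 and 91.1) were lower and Cd14 (583 and 834) was higher. Among the 5 monocyte markers that reached the floor, 3 passed 1.5-fold downward as deposited (Plac8, Itgam and Nr4a1) and 0 upward. Of all genes that reached it, 28.2% and 9.36% did so. After trend removal, 0 of the 5 passed downward and 1, Cd14, upward, against 18.6% and 13.9%. The summed intensity of the macrophage markers was higher in Il34LacZ/LacZ, as given above, but these markers did not move together. Of the 8 that reached the floor, 3 passed 1.5-fold upward as deposited, Pf4 (148 and 975), C1qa (256 and 599) and Ms4a7 (64.8 and 270). Adgre1 (281 and 145) passed downward. The background was 9.36% upward and 28.2% downward. After trend removal 6 passed upward and 0 downward, against 13.9% and 18.6%.

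The chemokine receptors of T cells, Cxcr3 and Ccr10, ran in opposite directions. Cxcr3, which binds the interferon-induced CXCL9 and CXCL10, read 171 in Il34+/LacZ cells and 79.8 in Il34LacZ/LacZ cells. It was 1.95-fold lower with the pseudocount added (2.14-fold by the plain readings). The difference was -0.97, and -0.73 with the trend removed, both beyond the probe set SD of 0.63. Among the genes nearest in level, 16.2% differed by more in this direction.

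Ccr10, the receptor of the keratinocyte chemokine CCL27, read 65.4 in Il34+/LacZ cells and 126 in Il34LacZ/LacZ cells. It was 1.74-fold higher, a difference of 0.80, and 0.85 with the trend removed. Of the genes of its level, 6.60% read higher still by this measure. The Il34+/LacZ reading was only 1.34 times the floor. Of the 10 T cell markers, 1 was at least 1.5-fold higher and 2 lower as deposited, against 9.36% and 28.2% of all genes at or above the floor. After trend removal 2 were higher and 0 lower, against 13.9% and 18.6%. Their median was -0.34, or 0.22 with the trend removed.

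Xcr1, the receptor of XCL1 on cross-presenting dendritic cells, read 27.3 in Il34+/LacZ cells and 38.1 in Il34LacZ/LacZ cells. Both were below the floor, so no fold is given. Its difference of 0.32 equalled the median of 0.32 of genes of its level.

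**Figure D2:**
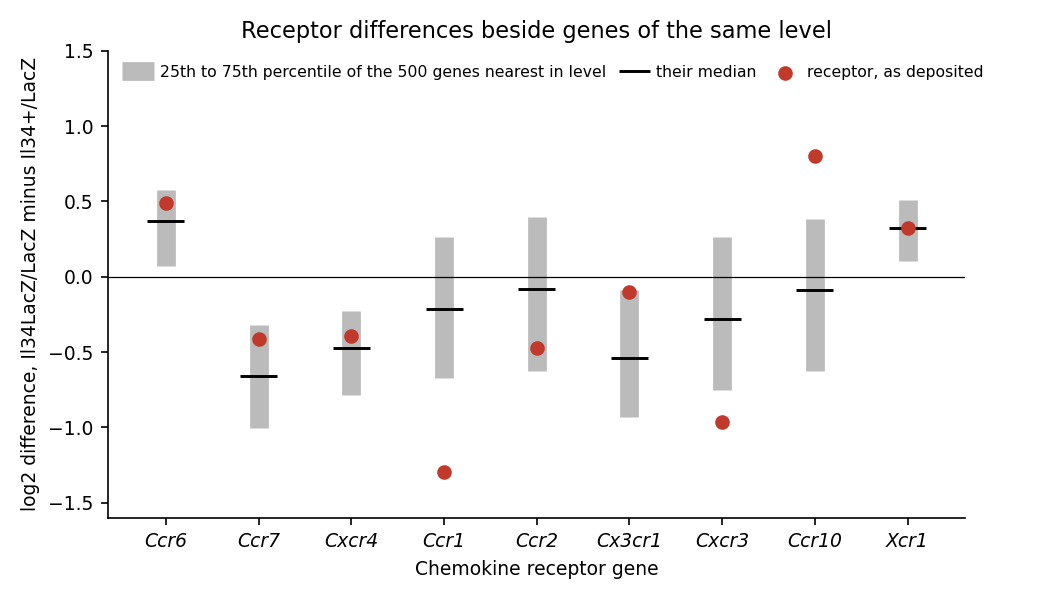
Difference on the log2 scale (Il34LacZ/LacZ minus Il34+/LacZ) of each receptor (points), with the median (black line) and the 25th to 75th percentile (grey bar) of the 500 genes nearest in mean level. Ccr1 and Cxcr3 lie below their bars and Ccr10 above, and the other 6 lie within theirs.

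As a set, the receptors passed 1.5-fold in numbers close to the background, so the counts say little about them. Of the 9, 8 were at or above the floor on at least 1 array and 7 on both. For all 19937 genes these numbers were 12843 and 9803. As deposited 2 of the 8 (Ccr1 and Cxcr3) passed 1.5-fold in the lower direction, against a background of 28.2% of all 12843 genes at or above the floor, and 1 (Ccr10) was at least 1.5-fold higher, against 9.36%. With the trend removed the same 3 genes passed in the same directions, 2 lower against 18.6% and 1 higher against 13.9%. The median of the 8 was -0.40 as deposited and 0.13 with the trend removed, beside -0.13 and 0.03 for all genes at or above the floor. With each array centred on its median, 5 receptors were at least 1.5-fold lower, since Ccr2, Ccr7 and Cxcr4 came to -0.64, -0.60 and -0.59, but 37.0% of all genes at or above the floor were lower under that scaling. At a threshold of 2-fold only Ccr1 was left as deposited, although Cxcr3 came to -1.09, past 2-fold, with a pseudocount of 1. With a floor at the 75th percentile Ccr1 alone passed as deposited, while Ccr1 and Cxcr3 passed with the trend removed.

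**Figure D3:**
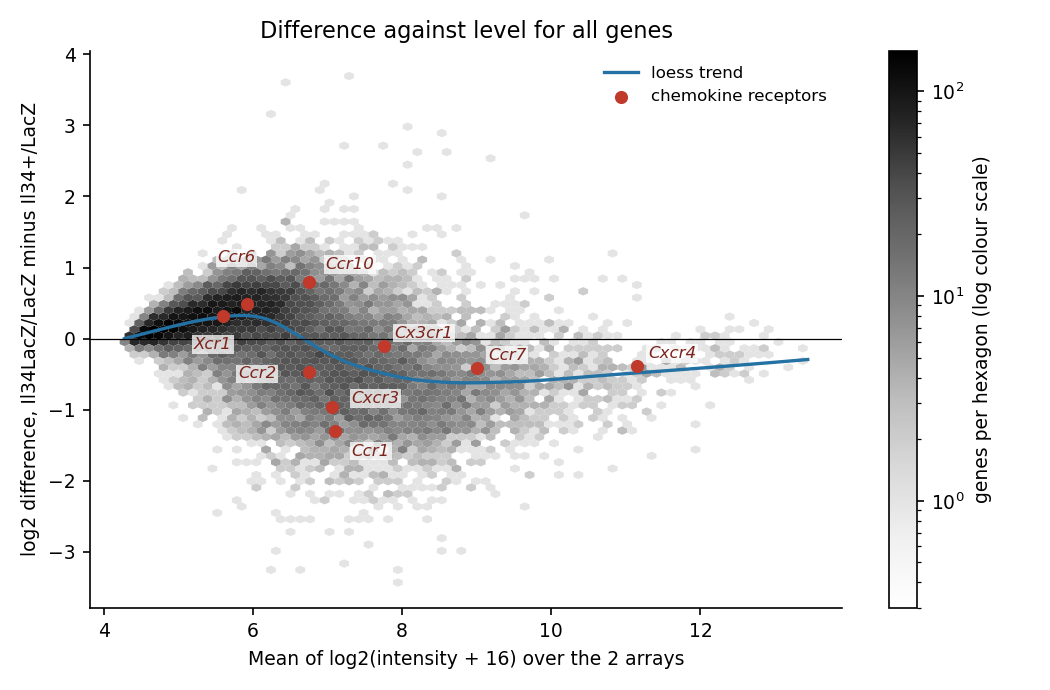
Difference on the log2 scale (Il34LacZ/LacZ minus Il34+/LacZ) against the mean of log2(intensity + 16) over both arrays for all 19937 genes (grey hexagons, darker for more genes), with the loess trend (line) and the 9 receptors (points). The receptors at low level lie where the trend is above 0, Cxcr4 and Ccr7 where it is below 0, and Ccr1, Cxcr3 and Ccr10 stand furthest from it.

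Among the measured genes of its cluster, Ccr1 alone was at least 1.5-fold apart. Of the 9 receptors 4 lie on chromosome 9, and Xcr1, Ccr1 and Ccr2 stand in 1 cluster with Ccr9, Cxcr6, Ccr1l1 and Ccr3. Ccr9, Ccr1l1 and Ccr3 were below the floor on both arrays, between 20.9 and 27.3. Cxcr6, a receptor of skin-resident T cells, read 485 and 441, a difference of -0.13, and Fyco1, a non-receptor gene of the cluster, read 98.8 and 85.6. Ccr2 differed by -0.47, as given above.

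Among the other chemokine receptors, 1 gene was at least 1.5-fold apart as deposited and 0 with the trend removed. Of 16 listed, 15 were measured and 8 were at or above the floor on at least 1 array. As deposited 1 of the 8 was lower and 0 higher, against 28.2% and 9.36% of all genes at or above the floor, and with the trend removed 0 passed in either direction, against 18.6% and 13.9%. The lower one was Ccrl2, a chemerin-binding receptor (1367 against 764, 1.77-fold), which did not pass with the trend removed, at -0.25, or after quantile normalization. Ccr8, another receptor of skin T cells, read 358 and 343, a difference of -0.06, or 0.55 with the trend removed, and Ccr4 read 50.1 and 52.2. Cxcr6 differed by 0.49 with the trend removed. Ackr2, a scavenger of inflammatory chemokines, read 36.7 and 67.0, at least 1.28-fold higher. Their median was -0.01, or 0.15 with the trend removed, and 0.12 after quantile normalization.

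Ligands of the 9 receptors read higher more often than lower. Of 17 measured, 13 were at or above the floor, and 4 were at least 1.5-fold higher and 1 lower as deposited, against backgrounds of 9.36% and 28.2%. With the trend removed 8 were higher and 1 lower, against 13.9% and 18.6%. Ccl19, counted among the 8, has probe sets that disagree in direction, and 7 ligands were higher with the mean of the probe sets of a gene. The median of the 13 was 0.20, or 0.76 with the trend removed, and 0.01 once both arrays were centred on their medians. The receptors and their ligands are set side by side below, with no test of the relation.

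Ccr1 was lower while its ligand Ccl9 was 2.51-fold higher (110 in Il34+/LacZ and 301 in Il34LacZ/LacZ). Other ligands of CCR1 differed by less than the probe set SD as deposited, with Ccl3 at 1918 and 2178, Ccl5 at 797 and 919 and Ccl6 at 135 on both arrays. After trend removal, Ccl3 and Ccl5 were higher by 0.67 and 0.79, past 1.5-fold, and Ccl6 by 0.32. The ligands of Cxcr3 split, since Cxcl9 was 3.41-fold lower (258 and 64.1), Cxcl10 was 2.18-fold higher (275 and 617) and Cxcl11 was below the floor. Cxcr3 and Cxcl9 thus were lower together. Ccl2, the main ligand of CCR2, was 1.77-fold higher (340 and 615), whereas Ccr2 itself was 1.39-fold lower. Ccl7, a ligand of CCR1 and CCR2, read 160 and 136, a difference of -0.21, or 0.16 with the trend removed. Ccl12, another ligand of CCR2, read 45.1, below the floor, and 62.8. Ccl4, a chemokine of activated leukocytes, was 1.84-fold higher (1424 and 2631).

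Partners of the remaining receptors lay on both sides of the floor. Ccl20, Cxcl12 and Ccl28, ligands of CCR6, CXCR4 and CCR10, were below the floor on both arrays, and Ccl27a was not analysed here. Cx3cl1, the ligand of CX3CR1, read 80.7 and 70.2, a difference of -0.17, or -0.27 with the trend removed. Xcl1, the ligand of XCR1 and a product of T and natural killer cells, read 605 and 673, although its receptor was below the floor, and its difference of 0.15 was 0.76 with the trend removed. Ccl19, a ligand of CCR7, read 463 and 608, but its 4 probe sets ran from -1.98 to 0.38, so its direction is uncertain.

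Most genes listed as acting below chemokine receptors passed 1.5-fold in the lower direction as deposited, but fewer did with the trend removed. Of 30 listed G protein, kinase, arrestin, RGS and motility genes 28 were measured and 27 were at or above the floor. As deposited 18 of the 27 were at least 1.5-fold lower and 0 higher, against backgrounds of 28.2% and 9.36%. With the trend removed 8 were lower and 1 higher, against 18.6% and 13.9%, and 8 of the 27 lay above the trend. The median was -0.93, or -0.43 with the trend removed and -0.54 after quantile normalization. The count lower with the trend removed was 4 with a pseudocount of 64 and 11 with a pseudocount of 1. It was 10 with a loess fraction of 0.6 and 12 with the trend fitted to all probe sets.

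The furthest lower with the trend removed were Rgs19, Dock2, Arrb1 and Pik3r6, and the folds given here are as deposited. Rgs19, a GTPase activator that ends Gi signalling, was 3.14-fold lower (960 in Il34+/LacZ and 294 in Il34LacZ/LacZ). Dock2, the Rac activator of leukocyte migration, was 2.85-fold lower (676 and 227). Arrb1, an arrestin that uncouples activated receptors, was 2.77-fold lower (246 and 78.6), and Pik3r6, a regulatory subunit of PI3-kinase gamma, 2.31-fold lower (282 and 113). With the trend removed they differed by -1.03, -0.89, -1.12 and -0.75, all beyond the probe set SD, and they were named for their size. Gng2, a G protein gamma subunit, read 303 and 330 and was the 1 gene higher with the trend removed, at 0.71.

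**Figure D4:**
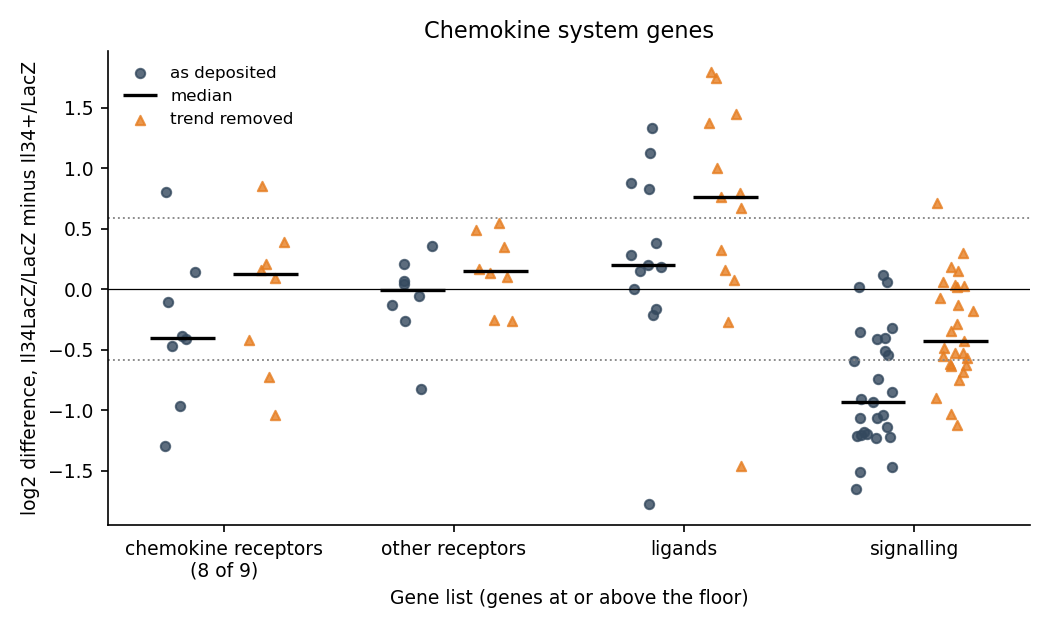
Difference on the log2 scale (Il34LacZ/LacZ minus Il34+/LacZ) of the chemokine receptors, other receptors, ligands and signalling genes at or above the floor on at least 1 array, as deposited with the dimmer array set to at least the floor (circles) and with the trend removed (triangles), with medians as black lines and 1.5-fold as dotted lines. Ligands have a median of 0.20 and 0.76 by these measures, and signalling genes of -0.93 and -0.43.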

How the data were processed

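Gene expression was measured on 2 one-colour arrays of a mouse whole-transcript platform, 1 for each genotype. The authors deposited 1 processed intensity for each of 34760 probe sets and array, on a linear scale. Software, background correction and scaling are not given in the sources used, and no scanner file was analysed here.

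The platform annotation gave 21640 probe sets 1 gene symbol, 1321 several and 11799 none. Only single-symbol probe sets were used, and the one with the highest mean represented each of 19937 genes. Entrez numbers of 21553 probe sets were found in the RefSeq gene table (GRCm38.p6), where 0 symbols needed updating. The level of a gene is log2(intensity + 16), and a difference subtracts the Il34+/LacZ level from the Il34LacZ/LacZ level. The floor was the median intensity of all probe sets and both arrays. A loess fit (fraction 0.3) of differences against mean level was subtracted for comparison with genes of the same level. The 500 genes nearest in mean level gave medians and quartiles.

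No test or p-value is possible with 1 array for each genotype, and the number of arrays limits the precision. Members and lists were chosen with earlier results of these data known. All 9 receptors are named, together with the 5 largest trend-removed differences of each other chemokine list, partner ligands and defining cell type markers. The scripts were tested on simulated data. Receptor protein sequences were not analysed here. Alternatives changed the pseudocount, probe set rule, scaling, loess fit, floor and threshold. Python 3.11.15, numpy 2.4.6, pandas 2.3.3, statsmodels 0.14.6 and matplotlib 3.10.9 were used.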

Additional observations from a re-analysis of the deposited data

How the results depend on the processing

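With 1 array per genotype, no array could be left out. No paired analysis was possible because each genotype has 1 array. Ccr1 kept a lower reading and Ccr10 a higher one in every alternative computed for them, from -1.47 to -0.96 and from 0.55 to 0.94 as deposited or rescaled. Cxcr3 ran from -1.14 to -0.71. Ccr7, Cxcr4 and Cx3cr1 changed sign with quantile normalization (0.12, 0.10 and 0.30). None of the 90 recomputed receptor differences moved by as much as the probe set SD. Each of the 9 receptors has 1 probe set, so the probe set rule cannot move its intensities.

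As deposited, the count of higher receptors went from 1 to 0 with a pseudocount of 64, the floor at the 75th percentile or a 2-fold threshold, and with the trend removed it went to 0 with that floor and that threshold. As deposited, the count of lower receptors went from 2 to 5 with each array centred on its median, and to 1 with the 75th percentile floor or the 2-fold threshold. With the trend removed it went to 1 with a pseudocount of 64 or the 2-fold threshold. For the other receptors, 1 read higher with no floor in place of 0, and 0 read lower after quantile normalization in place of 1. Quantile normalization gave 8 higher ligands in place of 4 and 1 higher signalling gene in place of 0. A pseudocount of 64 left 4 lower signalling genes with the trend removed, in place of 8, whereas a trend fitted to all probe sets gave 12. The cause was not tested. Over all genes at or above the floor, higher genes made up 24.9% of those at least 1.5-fold apart as deposited, 12.7% with each array centred on its median, 45.9% after quantile normalization and 42.8% with the trend removed.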
